A study of Mus musculus with 3 samples.

Results

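The genes described are 10 cyclins, kinases and CDK1 partners that drive entry into cell division: the cyclins Ccna1, Ccna2, Ccnb1 and Ccnb2, the kinase Cdk1 with its phosphatase Cdc25c and its small binding partner Cks2, the Aurora kinases Aurka and Aurkc, and the Polo kinase Plk1. They were taken by symbol from the deposited tables, in which 10 of 22843 listed genes carry these names, and were followed over all 5023 cells. They were chosen as a set for their use in mitotic and meiotic divisions and for the RNA that stays in spermatids.

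The cells came from testes of ICR mice. AAV9 virus carrying a short hairpin RNA and a red fluorescent protein (RFP) was injected at postnatal day 21. One testis received the control hairpin (shCtrl), and the opposite testis received 1 of 2 hairpins (shRNA1 or shRNA2) against Gm4665, a long noncoding RNA. After depletion of somatic cells, germ cells with RFP were collected by flow sorting, and 1 droplet library with 3' tags was made per group, each from 3 mice. All 3 groups carry virus, RFP and a hairpin, so no group was left uninjected, and with 1 library a group the hairpin and the library cannot be told apart. A sort for RFP also takes only cells that the virus reached.

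CDK1 bound to a B cyclin is the kinase that starts both mitosis and the meiotic divisions. Cyclin A2 serves S phase and mitosis in most dividing cells, whereas cyclin A1 is largely restricted to the male germline, where mouse spermatocytes without it stop before the first meiotic division. Spermatocytes spend a long prophase before they divide, and the round spermatids that follow no longer divide.

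The libraries held 1418 (shCtrl), 1732 (shRNA1) and 1873 (shRNA2) cells, with medians of 19366, 14667.5 and 16518 unique molecular identifiers (UMIs, 1 for each captured RNA molecule) per cell. Gm4665 stood at 311 CPM (a gene's UMIs scaled to a common total of the summed cells) over all cells of shCtrl, 52.8 in shRNA1 and 79.1 in shRNA2, so both targeted libraries matched their labels. Clustering without the 10 genes gave 20 clusters, most of which were named from marker genes: spermatogonia-like (239 cells), leptotene/zygotene-like (368), pachytene/diplotene-like (675), round spermatid-like (1258) and elongating spermatid-like (1711). A cluster of 145 cells stayed unnamed. In it 10 of 11 leptotene/zygotene markers were raised (mean log2 difference from the other cells 2.44), and 9 spermatogonial markers (1.79). Its leading genes included the spermatogonial markers Rhox13 and Stra8, so it was given no class. Another 329 cells with Sertoli and spermatid genes stayed mixed, and 292 cells carried macrophage or B cell genes although germ cells had been sorted. Free RNA was present: Prm1, a protamine gene of late spermatids, stood at 8490, 10750 and 9968 CPM in the macrophage-like cells and the resting B cell-like cells. These 16, 50 and 79 immune cells are the comparator for background in what follows. They leave out 1 dividing B cell-like cluster and were chosen after the values were seen. Some germ cell levels lay below theirs, so the comparator is not a floor. Between 5 and 7 cell barcodes were shared by any pair of libraries.

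Cyclin A1 and cyclin A2 followed opposite patterns. Ccna1 (chr3:55045469-55055501, minus strand; mm10 positions from GENCODE here and below) stood at 581, 446 and 508 CPM in the pachytene/diplotene-like cells of shCtrl, shRNA1 and shRNA2. Its level was 24.5, 39.8 and 48.6 CPM in spermatogonia-like cells and 34.7, 51.9 and 52.1 CPM in leptotene/zygotene-like cells. The pachytene/diplotene-like libraries were all far above the others, while the earlier 2 classes overlapped each other and the immune comparator, which held 12.6, 35.5 and 47.5 CPM. Ccna1 was thus higher in pachytene/diplotene-like than in spermatogonia-like cells by 3.77 ± 0.19 (SE) on the log2(CPM + 1) scale (limma, adjusted p = 5.08e-11, 3 libraries) and higher than in leptotene/zygotene-like cells by 3.45 ± 0.19 (adjusted p = 7.25e-10). The step from spermatogonia-like to leptotene/zygotene-like cells was 0.32 ± 0.19 and was not called (adjusted p = 0.129).

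Ccna2 (chr3:36564865-36572150, minus strand) ran the other way. It stood at 104, 102 and 165 CPM in spermatogonia-like cells and at 145, 64.9 and 150 CPM in the unnamed Stra8 cluster. In leptotene/zygotene-like cells it was 1.75, 0.641 and 2.02 CPM, from 5, 1 and 12 UMIs, and in pachytene/diplotene-like cells 1.59, 1.22 and 1.68 CPM. No library of the later named classes came near the spermatogonia-like values. The unnamed Stra8 cluster, in which most leptotene/zygotene markers were raised, lies in none of these classes. The difference between leptotene/zygotene-like and spermatogonia-like cells was -5.67 ± 0.22 (SE) on the log2 scale (limma, adjusted p = 2.60e-11). In these 5 classes no level after the spermatogonia-like cells lay above that of the resting immune cells, 4.2, 0 and 15.2 CPM, beyond counting error, and these levels are read as background. The dividing B cell-like cluster held Ccna2 at 91.3 CPM. The 3' end of Ccna2 lies within Exosc9 on the opposite strand, and the sources used here do not state whether counting used strand; Exosc9 itself stood at 24.2, 25 and 24.1 CPM in the leptotene/zygotene-like cells, in which Ccna2 was near 0.

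Both A cyclins were also counted per cell. A UMI of Ccna1 alone was held by 2807 cells and UMIs of both by 233, so that 7.66% of cells with Ccna1 also held Ccna2, and after thinning every cell to 10000 UMIs the share was 5.08%. Ccna2 was held by 8.62% of all cells, and by 6.45% after thinning, so cells with Ccna1 held it about as often as cells at large. Within spermatogonia-like cells 72.2% of cells with Ccna1 held Ccna2, beside 71.6% of all cells of the class. Within pachytene/diplotene-like cells 97.8% of cells held Ccna1 and 5.19% held Ccna2, and after thinning 96.0% and 1.49%. Within spermatogonia-like cells the order was the reverse, with Ccna2 in the larger share and 45.2% of cells holding Ccna1. The Ccna1 share there was 34.1% after thinning, beside 12.5%, 40.0% and 32.8% of the resting immune cells of the 3 libraries, so the spermatogonia-like share is read as background. The median depth of these immune cells was 13760, 10010 and 12580 UMIs, and that of the spermatogonia-like cells 15709, 14732 and 14280.

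**Figure D1:**
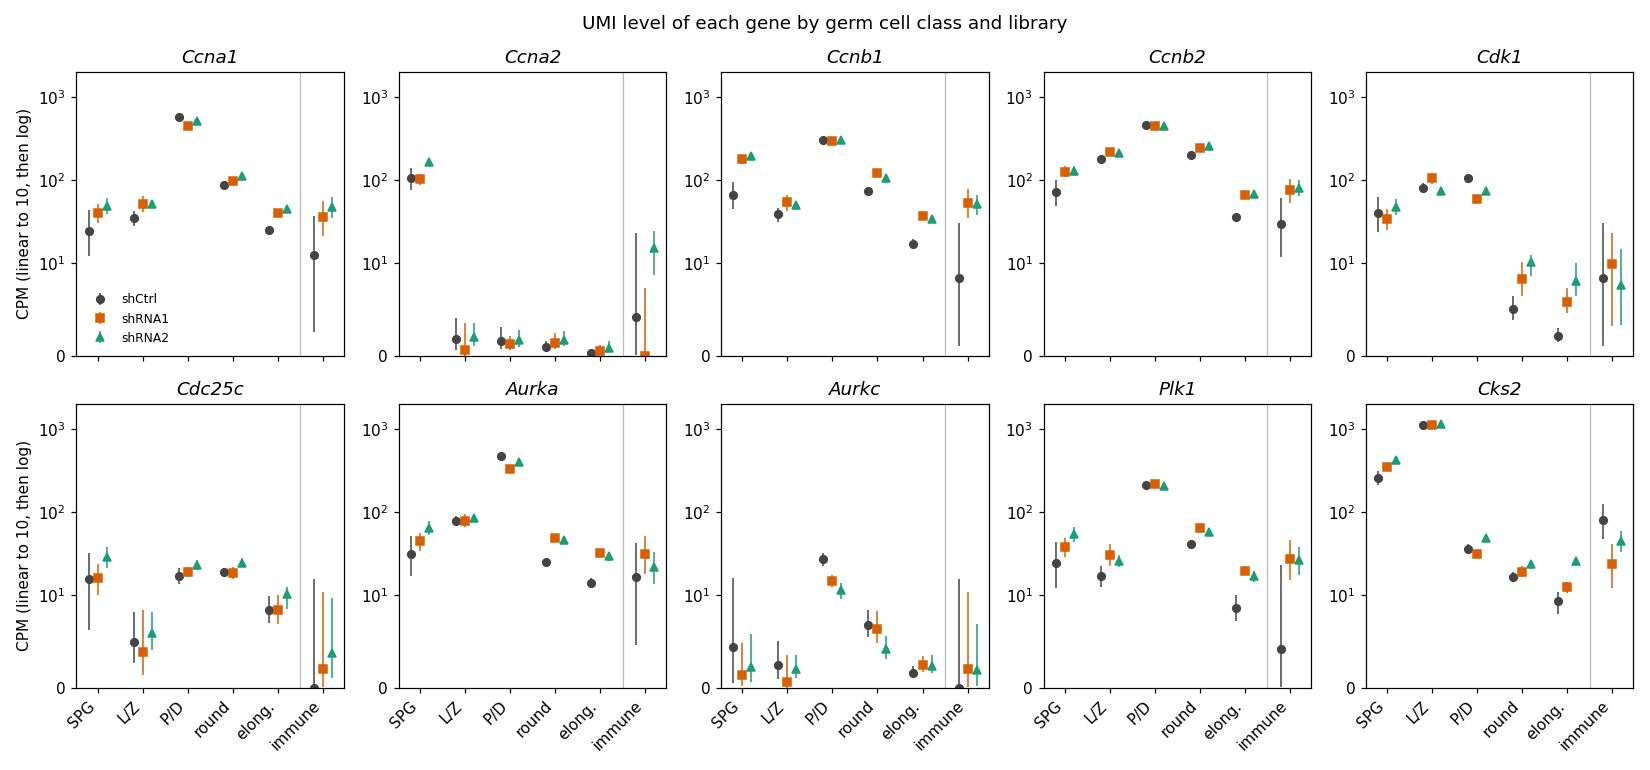
Level (CPM, linear to 10 and logarithmic above) of the 10 genes in spermatogonia-like (SPG), leptotene/zygotene-like (L/Z), pachytene/diplotene-like (P/D), round and elongating spermatid-like cells of each library, and in resting immune cells (right of the line) as a background; bars are exact 95% Poisson intervals for counting error only. Ccna1, Aurka and Plk1 peak in P/D cells in all 3 libraries, Ccna2 is high in SPG cells alone among these classes, and Cks2 peaks in L/Z cells at 1120 to 1135 CPM.

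Cyclins B1 and B2, the partners of CDK1 at division, were measured in spermatogonia-like cells and had their highest level of the 5 classes in pachytene/diplotene-like cells in all 3 libraries. Ccnb1 (chr13:100778650-100786570, minus strand) stood at 66.7, 178 and 195 CPM in spermatogonia-like cells, at 38.6, 53.8 and 49.6 CPM in leptotene/zygotene-like cells and at 302, 298 and 306 CPM in pachytene/diplotene-like cells. All 3 libraries thus showed a dip between the named classes. The unnamed Stra8 cluster, in which most leptotene/zygotene markers were raised, lies in none of them. It held Ccnb1 at 181, 106 and 188 CPM. Ccnb1 fell by 1.48 ± 0.22 (SE) on the log2 scale from spermatogonia-like to leptotene/zygotene-like cells (limma, adjusted p = 2.58e-05) and was then higher by 2.66 ± 0.22 in pachytene/diplotene-like cells (adjusted p = 4.89e-08). The resting immune cells held 8.4, 53.3 and 51.3 CPM, and the leptotene/zygotene-like level overlapped theirs in both hairpin libraries. In shCtrl its counting interval, 31.7 to 46.5 CPM, lay above theirs, 1.02 to 30.3 CPM. The difference between pachytene/diplotene-like and spermatogonia-like cells, 1.18 ± 0.22 (adjusted p = 0.000143), rested on the control library, whose 27 spermatogonia-like cells held 30 UMIs of Ccnb1; without that library it was 0.69 and was not called.

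Ccnb2 (chr9:70407692-70421547, minus strand) had no such dip. Its level was 71.1, 127 and 128 CPM in spermatogonia-like, 181, 217 and 211 CPM in leptotene/zygotene-like and 457, 442 and 446 CPM in pachytene/diplotene-like cells, so that each class lay above the one before in every library. The first step was 0.94 ± 0.16 (SE) on the log2 scale (limma, adjusted p = 0.000110), just under the 2-fold threshold, and the second was 1.14 ± 0.16 (adjusted p = 1.37e-05). Of cells with a Ccnb1 UMI 86.0% also held one of Ccnb2, and 79.6% after thinning, where 77.7% and 64.6% of all cells held Ccnb2. In pachytene/diplotene-like cells Ccnb2 was held by 99.7% of all cells, so the share there says nothing of the pair. Processed copies of Ccnb1 with 96.1 to 99.2% identity, such as Ccnb1-ps, exist in the genome and are not rows of the tables, so the Ccnb1 level carries an uncertainty of assignment that the Ccnb2 level does not.

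The promoters of several of these genes share a spaced pattern of letters, shown here because the genes that carry it include both B cyclins, Cdk1 and Aurka. RefSeq windows of 250 bases before to 50 bases after the gene start (build GRCm38.p6) were found for 8 of 10 genes; Ccna2 and Cdc25c had no entry. They were searched on both strands for CCAAT, the letters bound by NF-Y, for TTTGAA, the core of the cell cycle element known as CHR, and for AACNG, the core of MYB sites, which 80.4% of all promoters held and which is not marked. Windows are printed in the direction of the gene, with matches to CCAAT and TTTGAA in capitals, where ATTGG is CCAAT on the other strand. No marked matches overlap.
Ccnb1, chr13:100786437-100786736, minus strand: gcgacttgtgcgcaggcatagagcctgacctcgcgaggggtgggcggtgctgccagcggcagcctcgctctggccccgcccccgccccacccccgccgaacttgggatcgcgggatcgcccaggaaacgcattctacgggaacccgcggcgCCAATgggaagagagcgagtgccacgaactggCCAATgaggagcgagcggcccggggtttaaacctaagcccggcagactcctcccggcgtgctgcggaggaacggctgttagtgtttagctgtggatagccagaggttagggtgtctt
Ccnb2, chr9:70421505-70421804, minus strand: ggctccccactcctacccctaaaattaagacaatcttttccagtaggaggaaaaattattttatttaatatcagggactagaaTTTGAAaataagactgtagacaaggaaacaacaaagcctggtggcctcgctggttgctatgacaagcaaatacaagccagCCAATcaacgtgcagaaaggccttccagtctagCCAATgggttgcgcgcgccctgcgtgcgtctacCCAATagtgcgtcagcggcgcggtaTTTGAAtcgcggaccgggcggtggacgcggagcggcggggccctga
Cdk1, chr10:69352863-69353162, minus strand: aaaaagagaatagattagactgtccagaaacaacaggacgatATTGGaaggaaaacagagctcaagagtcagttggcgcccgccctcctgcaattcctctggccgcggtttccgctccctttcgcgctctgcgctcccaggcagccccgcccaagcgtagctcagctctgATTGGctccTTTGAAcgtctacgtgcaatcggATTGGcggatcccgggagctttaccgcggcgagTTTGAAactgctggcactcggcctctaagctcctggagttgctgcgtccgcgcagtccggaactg
Aurka, chr2:172370521-172370820, minus strand: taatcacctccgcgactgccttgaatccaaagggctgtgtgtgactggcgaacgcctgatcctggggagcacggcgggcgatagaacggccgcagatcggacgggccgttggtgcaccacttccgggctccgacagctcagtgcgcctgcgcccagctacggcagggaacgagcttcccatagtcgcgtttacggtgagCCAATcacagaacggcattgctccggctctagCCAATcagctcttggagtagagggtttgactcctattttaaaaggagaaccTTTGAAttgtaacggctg
Ccna1, chr3:55055006-55055305, minus strand: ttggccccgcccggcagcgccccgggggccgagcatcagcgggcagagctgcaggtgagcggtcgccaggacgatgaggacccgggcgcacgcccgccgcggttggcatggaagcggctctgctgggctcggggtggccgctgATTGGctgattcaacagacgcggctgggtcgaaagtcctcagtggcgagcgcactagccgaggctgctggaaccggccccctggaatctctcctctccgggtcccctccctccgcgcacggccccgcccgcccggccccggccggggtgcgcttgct

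All 8 windows held CCAAT at least once, against 37.9% of the 27025 gene promoters in the same table. The starts of neighbouring CCAAT matches on 1 strand lay 32 bases apart in Ccnb1, Cdk1 and Aurka, and 33 bases apart, in a row of 3, in Ccnb2. A pair spaced by 32 or 33 bases was present in 0.514% of all promoters; the spacing was looked for after it had been seen in these 4 genes. TTTGAA was found in Ccnb2, Cdk1, Aurka and Plk1, and in 18.1% of all promoters. Ccna1, the germline cyclin printed last, had 1 CCAAT match and no TTTGAA. Its window lies wholly inside the GENCODE gene interval, whose start on the minus strand is 55055501, whereas the other printed windows reach beyond their gene intervals. The 2 sources thus place the Ccna1 start differently. A window at the GENCODE start was not searched, so the Ccna1 matches cannot be set against the others. A match is a description of the letters only.

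Cdk1 (chr10:69335146-69352938, minus strand), the shared catalytic kinase, was called between only 1 of the 3 pairs of classes up to the late spermatocytes. It stood at 40.0, 33.9 and 47.5 CPM in spermatogonia-like cells, at 81.4, 106 and 74.7 CPM in leptotene/zygotene-like cells and at 105, 59.1 and 74.3 CPM in pachytene/diplotene-like cells. The last 2 classes overlapped, and the highest class was pachytene/diplotene-like in shCtrl and leptotene/zygotene-like in both other libraries. Cdk1 was higher in leptotene/zygotene-like than in spermatogonia-like cells by 1.09 ± 0.32 (SE) on the log2 scale (limma, adjusted p = 0.00642), a difference that fell to 0.82 without shRNA1 and to between 0.74 and 0.89 under the other clusterings, below the threshold. Between pachytene/diplotene-like and leptotene/zygotene-like cells the difference was -0.16 ± 0.32 (adjusted p = 0.658). Among the pachytene/diplotene-like clusters Cdk1 differed more than the B cyclins: it was at 148 and 140 CPM in the clusters led by Zbtb42 and Car5a and at 49.4 and 24.98 CPM in those led by Ssxb3 and Gm6588, while Ccnb2 was 428, 310, 483 and 411 CPM and Ccnb1 339, 208, 315 and 238 CPM in the same order.

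Cks2 (chr13:51645232-51650660, plus strand), a small protein that binds CDK1 and that mouse germ cells need to pass the first meiotic metaphase, had its highest level in the leptotene/zygotene-like class, before the class in which Ccna1, Ccnb1 and Ccnb2 were highest. Its level was 258, 347 and 423 CPM in spermatogonia-like cells and 1125, 1120 and 1135 CPM in leptotene/zygotene-like cells. In pachytene/diplotene-like cells it was 36.2, 31.0 and 48.6 CPM. The resting immune cells, at 79.8, 23.7 and 44.6 CPM, overlapped it in both hairpin libraries and lay above it in shCtrl. The 3 libraries lay close together in the leptotene/zygotene-like class, and no other class reached those values in any library. Cks2 rose by 1.74 ± 0.19 (SE) on the log2 scale into that class (limma, adjusted p = 1.14e-06) and fell by 4.86 ± 0.19 after it (adjusted p = 6.61e-11). Over all cells it stood at 101, 80.5 and 204 CPM, beside leptotene/zygotene-like shares of 5.99%, 3.98% and 11.4% of cells. Its paralog Cks1b was highest in spermatogonia-like cells and was lower in pachytene/diplotene-like cells by a log2 difference of -5.84 ± 0.21. Copies of Cks2 with 98.3% identity or more exist in the genome, such as Gm15452, and are not rows of the tables.

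Cdc25c, the phosphatase that removes the inhibitory phosphates from CDK1, was low throughout. Its level was 15.6, 15.9 and 28.6 CPM in spermatogonia-like, 4.91, 3.85 and 5.89 CPM in leptotene/zygotene-like, and 17.1, 19.1 and 23.3 CPM in pachytene/diplotene-like cells. Every library had its low point in the leptotene/zygotene-like class among these 3. Cdc25c fell by 1.80 ± 0.17 (SE) on the log2 scale into that class (limma, adjusted p = 2.21e-07) and was higher by 1.83 ± 0.17 after it (adjusted p = 1.48e-07), with no detectable difference between the ends, 0.03 ± 0.17 (adjusted p = 0.869). Its relative Cdc25a moved in the same directions at both steps, with log2 differences of -2.31 ± 0.21 and 2.69 ± 0.21. Cdc25b did not pass the filter on low values; in shCtrl it had 0 UMIs in the leptotene/zygotene-like and pachytene/diplotene-like cells. In these classes the counting interval of Cdc25c lay above that of the resting immune cells in 1, 0 and 2 libraries. Cdc25c overlaps Gm3550 on the opposite strand, although its 3' end does not lie within Gm3550. Gm3550 had the same low point. It stood at 13.3, 7.97 and 9.15 CPM in spermatogonia-like and 2.46, 2.56 and 2.19 CPM in leptotene/zygotene-like cells. In the pachytene/diplotene-like cells it was 8.16, 6.30 and 5.47 CPM. The counting strand is not stated, and the part of Gm3550 in the Cdc25c level was not tested.

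Aurka (chr2:172356190-172370535, minus strand), the Aurora kinase of centrosomes and spindles, stood at 31.1, 44.5 and 64.7 CPM in spermatogonia-like, 78.2, 78.8 and 85.4 CPM in leptotene/zygotene-like, and 468, 328 and 396 CPM in pachytene/diplotene-like cells. The groups did not overlap. It was higher in pachytene/diplotene-like than in spermatogonia-like cells by 3.11 ± 0.25 (SE) on the log2 scale (limma, adjusted p = 1.38e-08) and than in leptotene/zygotene-like cells by 2.27 ± 0.25 (adjusted p = 9.12e-07). Among pachytene/diplotene-like clusters it dropped from 604 CPM in the Zbtb42-led cluster to 120 CPM in the Gm6588-led cluster. In the Zbtb42-, Car5a-, Ssxb3- and Gm6588-led clusters in turn, Ccna1 was 610, 212, 518 and 341 CPM and Plk1 246, 138, 213 and 171 CPM, with no steady drop in either.

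Aurkc (chr7:6995300-7003091, plus strand), the Aurora kinase of the chromosomal passenger complex in germ cells, was much scarcer. It reached 27.1, 14.9 and 11.7 CPM in pachytene/diplotene-like cells and 6.83, 6.40 and 4.19 CPM in round spermatid-like cells, and was at 4.45 CPM or less in every other germ class. Its mean over the classes was too low for the fit, so 9 of 10 genes were tested. Of pachytene/diplotene-like cells 38.4% held an Aurkc UMI, and 12.6% after thinning, beside 0% of the resting immune cells of shCtrl and shRNA1 and 2.99% of shRNA2 after thinning. Of the cells with Aurkc 98.5% also held Aurka, as did 97.9% of all cells of the class. Aurkb, the mitotic counterpart of Aurkc, was higher in pachytene/diplotene-like than in leptotene/zygotene-like cells (log2 difference 2.67 ± 0.29) and was not called between pachytene/diplotene-like and spermatogonia-like cells (-0.66 ± 0.29, adjusted p = 0.0488 by limma, short of 2-fold). Several copies of Aurkc with 95.02 to 99.2% identity, such as Gm12463, exist in the genome and are not rows of the tables, so the Aurkc level is uncertain.

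Plk1 (chr7:122159439-122169873, plus strand), the Polo kinase of mitotic and meiotic entry, stood at 24.5, 37.8 and 53.8 CPM in spermatogonia-like, 17.2, 30.8 and 26.1 CPM in leptotene/zygotene-like and 213, 215 and 204 CPM in pachytene/diplotene-like cells. The first 2 classes overlapped. The resting immune cells held 4.2, 27.6 and 26.6 CPM; the counting interval of spermatogonia-like cells lay above theirs in 1 library and that of leptotene/zygotene-like cells in 0. Plk1 was higher in pachytene/diplotene-like than in spermatogonia-like cells by 2.48 ± 0.20 (SE) on the log2 scale (limma, adjusted p = 1.47e-08). It overlaps Gm44985 on the opposite strand.

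Seen as a group, 5 of the 9 tested genes were called higher in pachytene/diplotene-like than in spermatogonia-like cells (Ccna1, Ccnb1, Ccnb2, Aurka and Plk1) and 2 lower (Ccna2 and Cks2). Of all 8062 genes tested, 31.3% were called higher and 30.2% lower. Against leptotene/zygotene-like cells 6 were called higher, adding Cdc25c, and 1 lower, Cks2, where 20.8% and 28.4% of all genes were called. From spermatogonia-like to leptotene/zygotene-like cells 2 were called higher (Cdk1 and Cks2) and 3 lower (Ccna2, Ccnb1 and Cdc25c), where 22.5% and 18.3% of all genes were called. The median log2 difference between pachytene/diplotene-like and leptotene/zygotene-like cells was 1.83 over the 9 genes and -0.13 over all genes. Pachytene/diplotene-like cells held the highest level in all 3 libraries for 6 of 10 genes (the 5 above and Aurkc), as they did for 22.3% of all genes tested. Spermatogonia-like cells did so for 1 (Ccna2) and 25.8% of all genes, leptotene/zygotene-like cells for 1 (Cks2) and 11.2%, and round and elongating spermatid-like cells for 0, against 14.9% and 9.12%. Cdk1 and Cdc25c had no class that was highest in every library.

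Other genes of the division machinery were called in both directions. Of 75 listed pathway genes 72 were in the tables and 55 were tested; 13 were called higher in pachytene/diplotene-like than in spermatogonia-like cells and 20 lower. Their highest differences were those of Hspa2, a chaperone that CDK1 needs in mouse spermatocytes (log2 difference 3.57 ± 0.24), Cdkn2c, an inhibitor of CDK4 and CDK6 (2.51 ± 0.16), and Cdkn3, a phosphatase of CDKs (2.47 ± 0.10). The lowest were those of the G1 cyclin Ccnd2 (-6.70 ± 0.22) and of the replication licensing genes Mcm2 (-6.44 ± 0.21) and Mcm3 (-5.87 ± 0.19). Of the other cyclins and CDKs 8 of 11 tested were lower and 0 higher, and of the S phase genes 8 of 10 were lower and 0 higher. Of the checkpoint and cyclin destruction genes 3 of 11 were higher (Cdc20, Fzr1 and Pttg1) and 1 was lower (Mad2l1). Ccnb3, a meiotic cyclin, did not pass the filter on low values; in shCtrl it stood at 27.9 CPM (10 UMIs) in the unnamed Stra8 cluster and at 1.40 CPM or less in the named germ classes.

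**Figure D2:**
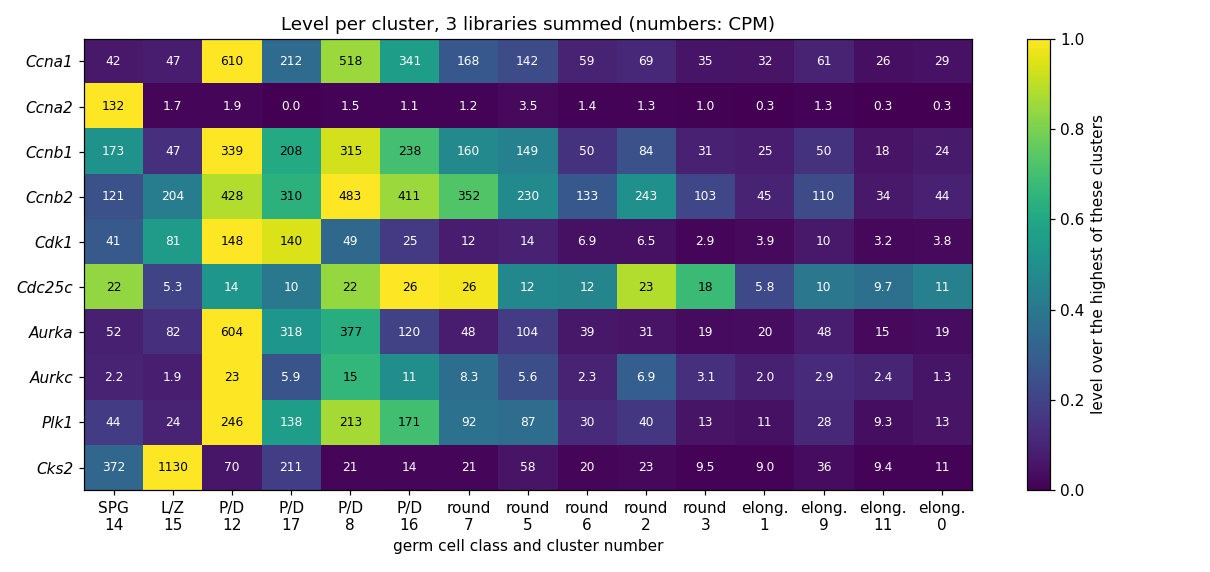
Level of the 10 genes in each germ cell cluster, summed over the 3 libraries; the printed number is CPM and the colour is the level over the gene's highest cluster, from 0 to 1. Along the P/D clusters 12, 17, 8 and 16, Cdk1 drops from 148 to 25 CPM and Aurka from 604 to 120 CPM, while Ccnb2 stays between 310 and 483 CPM.

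Over the 20 clusters, the genes whose log2 level was most like that of a member were Phospho2 for Ccna1 (Pearson's r = 0.98), Mcm2 for Ccna2 (0.97), Kpna2 for Ccnb2 (0.99), Ncapd2 for Cdk1 (0.97), Nup133 for Ccnb1 (0.97) and Vrk3 for Plk1 (0.98). For Aurka it was Fam118b (0.97), for Aurkc Amdhd2 (0.96), for Cks2 Cenpq (0.95) and for Cdc25c Pole (0.85). Among the genes themselves Ccnb1 and Plk1 were most alike (0.97), and Ccna1 and Ccna2 had r = -0.18. The points share libraries and depth, and the values are descriptions.

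The RNA of these genes left spermatids to different extents. In round spermatid-like cells Ccna1 stood at 88.3, 98.2 and 113 CPM, Ccnb1 at 73.2, 121 and 107 CPM, and Plk1 at 41.7, 64.2 and 57.0 CPM. Ccnb2 was at 200, 243 and 257 CPM. For these 4 genes and for Cdc25c, at 19.0, 18.6 and 24.6 CPM, the counting interval lay above that of the resting immune cells in all 3 libraries. The share of all genes that did so was not counted, so such counts describe the single genes and not the set. For Aurka, at 24.9, 48.8 and 46.1 CPM, it did so in 1 library, and for Cdk1 (5.06, 8.26 and 10.4 CPM), Aurkc, Cks2 and Ccna2 in 0. Summed over the libraries Aurka, at 38.6 CPM (36.5 to 40.8), and Aurkc, at 5.80 CPM (4.997 to 6.69), also lay above the immune cells at 23.9 (17.3 to 32.2) and 1.67 (0.344 to 4.87) CPM. Transcript of the B cyclins, cyclin A1, Plk1 and Cdc25c was thus above this background in every library, and that of Cdk1 was not distinguishable from it at this depth. Cks2 and Ccna2, when summed over the libraries, lay below the immune cells. For Cks2 and Ccna2 the comparator is thus not a floor, and it cannot show whether round spermatid-like cells hold their transcript.

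Set over the pachytene/diplotene-like level of the same library, the round spermatid-like level of Aurka was 0.0533, 0.148 and 0.117, and that of Cdk1 0.0484, 0.140 and 0.141. That of Ccna1 was 0.152, 0.220 and 0.222, of Plk1 0.196, 0.299 and 0.280, of Ccnb1 0.242, 0.406 and 0.348, and of Ccnb2 0.437, 0.549 and 0.577. For Cdc25c the ratio was 1.11, 0.976 and 1.06. A ratio of at least 0.5 in all 3 libraries was met by 2 of 9 genes, Cdc25c and Ccna2, whose level was background in both classes, and by 62.7% of all genes. Of the 5 tested genes that were highest in pachytene/diplotene-like cells 0 met it, against 47.5% of all genes highest there. The median ratio was 0.674, 0.749 and 0.755 over all genes and 0.490, 0.608 and 0.583 over the genes highest in pachytene/diplotene-like cells. In every library Cdk1 and Aurka had the lowest of these 7 ratios, followed by Ccna1, Plk1, Ccnb1, Ccnb2 and Cdc25c in that order. Counted as UMIs per cell, without scaling by the cells' total, the ratios were lower, at 0.0956, 0.119 and 0.189 for Ccna1 and 0.274, 0.296 and 0.491 for Ccnb2.

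In the test, 5 of 9 genes fell from pachytene/diplotene-like to round spermatid-like cells and 0 rose, where 25.4% of all genes fell and 21.0% rose. Aurka fell by 3.33 ± 0.25 (SE) on the log2 scale (limma, adjusted p = 3.29e-08), Cdk1 by 3.18 ± 0.32 (adjusted p = 4.84e-07), Ccna1 by 2.35 ± 0.19 (adjusted p = 5.27e-08), Plk1 by 1.96 ± 0.20 (adjusted p = 6.01e-07) and Ccnb1 by 1.61 ± 0.22 (adjusted p = 1.00e-05). The difference of Ccnb2 was -0.95 ± 0.16 (adjusted p = 8.99e-05), short of 2-fold, and that of Cdc25c was 0.06 ± 0.17 (adjusted p = 0.751). The median over all genes was -0.43, and -0.09 with TMM factors, under which the same 5 genes were called. Of the 55 pathway genes 27 fell, among them Hspa2, Cdc20, Pttg1, Aurkb and Birc5, and 1 rose, Arpp19, whose protein inhibits the phosphatase that opposes CDK1.

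The RNA also declined among the round spermatid-like clusters. In the cluster led by Tssk5, where 6 of 11 pachytene/diplotene markers were raised, the most among these clusters, Ccnb2 stood at 352 CPM, Ccna1 at 168, Ccnb1 at 160 and Plk1 at 91.8. In the cluster led by Nim1k the same genes stood at 103, 35.3, 31.0 and 12.7 CPM. Cdc25c was at 25.5 and 17.7 CPM in the same clusters. The Nim1k-led cluster also had a higher median depth, 45496 against 16672.5 UMIs per cell, and in UMIs per cell Ccnb2 was 9.95 and 4.71 and Cdc25c 0.721 and 0.808.

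In elongating spermatid-like cells the levels of each library overlapped the background or lay below it. Ccnb2 stood at 35.9, 66.9 and 69.0 CPM, Ccna1 at 25.4, 39.9 and 44.96 CPM, Ccnb1 at 17.2, 36.6 and 34.5 CPM and Plk1 at 8.58, 19.8 and 16.9 CPM. In 0 of 3 libraries did any of the 10 genes lie above the resting immune cells beyond the counting intervals. Summed over the libraries Cdc25c did, at 8.93 CPM (8.02 to 9.91) against 2.78 (0.903 to 6.49). Ccna2, Ccnb1, Ccnb2, Plk1 and Cks2, when so summed, lay below the immune cells. The share of all genes above or below them was not counted. Compared with round spermatid-like cells 5 of 9 genes fell (Ccna1, Ccnb1, Ccnb2, Cdc25c and Plk1) and 0 rose, where 42.6% of all genes fell and 4.17% rose; Ccnb2 fell by 2.06 ± 0.16 (SE) on the log2 scale (limma, adjusted p = 5.01e-08). The median over all genes was -0.83, and -0.14 with TMM factors, under which 2 were called (Ccnb2 and Plk1); with median-of-ratios factors it was 0.08 and 1 was called (Ccnb2). A level of at least 0.5 of the pachytene/diplotene-like level in all 3 libraries was kept by 0 of 9 genes, against 35.9% of all genes, and by 10.5% of all genes highest in pachytene/diplotene-like cells.

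**Figure D3:**
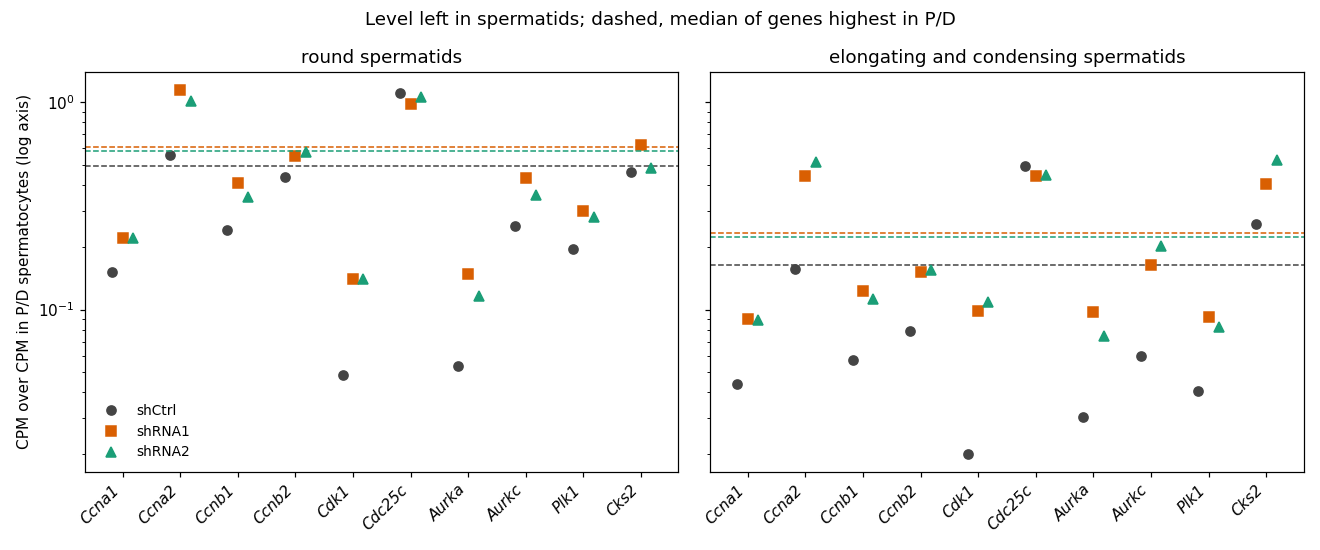
Level in round (left) and elongating (right) spermatid-like cells over the level in pachytene/diplotene-like (P/D) cells, for each gene and library (log axis); the dashed lines are the library medians over the genes highest in P/D cells. Cdc25c lies near 1 in round spermatids, Ccnb2 between 0.437 and 0.577, and Cdk1 and Aurka below 0.15.

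The study asked what Gm4665 depletion does in spermatogenesis, and each class with at least 50 cells in every library was compared. Over all cells, 0 of 8 compared genes were 2-fold higher and 0 were 2-fold lower with both hairpins, where 1.23% and 0.495% of all genes were; the same 0 was found in leptotene/zygotene-like (0.224% and 0.738%), pachytene/diplotene-like (0.219% and 0.175%) and round spermatid-like cells (0.286% and 0.271%). The balance over all genes depends on scaling: over all cells 87 genes were higher and 35 lower by total UMIs, and 30 and 191 with TMM factors (29 and 212 with median-of-ratios factors). In leptotene/zygotene-like cells 17 and 56 became 12 and 90 with TMM, in round spermatid-like cells 19 and 18 became 12 and 32, and in elongating spermatid-like cells 104 and 15 became 60 and 22. With 1 library a group these are differences between libraries, with counting intervals only and no test. Spermatogonia-like cells were below that number in shCtrl, with 27 cells, and got no such count. Ccnb1 there was 66.7 CPM (45 to 95.2) in shCtrl, 178 (157 to 201) in shRNA1 and 195 (175 to 217) in shRNA2. These intervals do not overlap between shCtrl and either hairpin. The same held for Ccnb2, at 71.1 (48.7 to 100), 127 (109 to 146) and 128 (112 to 146). It also held for Cks2, at 258 (213 to 309), 347 (318 to 378) and 423 (393 to 455). For the other members shCtrl overlapped at least 1 hairpin. The share of all genes without overlap was not counted, so these intervals describe the single genes and not the set. Over all cells 7 of 8 genes were higher with both hairpins by some amount, as were 61.0% of all genes, and 0 were lower, as were 28.2%. With clusters weighted to the shCtrl mix, Ccnb1, Ccnb2, Aurka and Plk1 stayed higher with both hairpins. Ccna1 (log2 differences -0.10 and 0.02), Cdk1 (-0.0084 and 0.08) and Cdc25c (-0.07 and 0.30) did not. Pachytene/diplotene-like cells made up 7.33% of shCtrl, 16.3% of shRNA1 and 15.4% of shRNA2 cells.

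Within leptotene/zygotene-like cells 5 of 7 compared genes were higher with both hairpins and 0 lower, where 47.2% of all genes were higher and 29.2% lower; Cks2 had ratios to shCtrl of 0.996 (0.939 to 1.06) and 1.01 (0.967 to 1.05). For 3 of the 5, Ccna1, Ccnb1 and Plk1, the level summed over libraries overlapped that of the resting immune cells. The immune values of these genes, given above, were also higher with both hairpins. In shCtrl they rested on 3, 2 and 1 UMIs, and only for Ccnb1 did the counting interval lie below those of both hairpins. The part of free RNA was not tested.

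Within pachytene/diplotene-like cells the levels of the B cyclins and Plk1 lay close together in the 3 libraries. The ratio to shCtrl was 0.985 (95% counting interval 0.926 to 1.05) and 1.01 (0.951 to 1.08) for Ccnb1, and 1.01 (0.937 to 1.09) and 0.956 (0.886 to 1.03) for Plk1. Aurkc was lower with both hairpins, at 0.552 (0.436 to 0.699) and 0.433 (0.333 to 0.563), from 27.1 CPM in shCtrl. Cdk1 was lower too, at 0.565 (0.502 to 0.635) and 0.709 (0.632 to 0.797), as were Aurka (0.702 and 0.846) and Ccna1 (0.768 and 0.874). In all, 5 of 9 genes were lower with both hairpins and 1 higher, Cdc25c, where 39.9% of all genes were lower and 36.0% higher.

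The clusters within the class were mixed differently: the Zbtb42-led cluster, in which Aurkc and Aurka were highest among these clusters in each library, held 32 of 104 cells in shCtrl, 52 of 282 in shRNA1 and 65 of 289 in shRNA2. Weighted to the shCtrl mix, the log2 differences were -0.70 and -1.07 for Aurkc, -0.42 and -0.24 for Cdk1, -0.15 and -0.12 for Aurka and -0.22 and -0.13 for Ccna1. In the Zbtb42-led cluster itself Aurkc stood at 38.5 CPM (83 UMIs) in shCtrl, 17.7 (38 UMIs) in shRNA1 and 14.5 (38 UMIs) in shRNA2. In the larger Ssxb3-led cluster it was 19.8, 16.6 and 11.7 CPM, and in the Gm6588-led cluster 13.3, 12 and 8.66 CPM, so that shRNA1 lay closer to shCtrl there.

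In round spermatid-like cells 6 of 7 compared genes were higher with both hairpins and 0 lower, as were 51.8% and 31.0% of all genes. The ratios were 1.96 (1.69 to 2.27) and 1.85 (1.61 to 2.14) for Aurka and 1.65 (1.51 to 1.81) and 1.46 (1.34 to 1.59) for Ccnb1. Weighted to the shCtrl cluster mix, the log2 differences were 0.56 and 0.72 for Aurka, 0.29 and 0.17 for Ccnb1, and 0.17 and 0.07 for Plk1. They were -0.22 and 0.01 for Ccna1, -0.05 and 0.09 for Ccnb2, and -0.26 and 0.26 for Cks2. So weighted, Ccna1, Ccnb2 and Cks2 were not higher with both hairpins. In the resting immune cells Ccnb1 was higher with both hairpins too, at 8.4, 53.3 and 51.3 CPM, from 2 UMIs in shCtrl. Their Aurka stood at 16.8, 31.6 and 21.8 CPM, from 4 UMIs in shCtrl. Its counting intervals overlapped, at 4.58 to 43.0, 18.1 to 51.3 and 13.8 to 32.8 CPM. The part of free RNA in the round spermatid-like differences was not tested.

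In elongating spermatid-like cells 6 of 6 compared genes were higher with both hairpins and 0 lower, as were 44.5% and 33.9% of all genes. By the 2-fold rule 1 gene, Aurka, was called, where 2.05% of all genes were; its ratios were 2.26 (1.92 to 2.67) and 2.08 (1.75 to 2.48), and its log2(CPM + 1) differences were 1.12 and 1.005, at the threshold of 1. Of the pathway genes Bub3 and Cdc20, both of the spindle checkpoint, were also called, with ratios of 2.36 and 2.48 for Bub3 and 2.13 and 2.35 for Cdc20. The values of the resting immune cells were also higher with both hairpins, from 4 and 1 UMIs in shCtrl. Their Aurka stood at 16.8, 31.6 and 21.8 CPM and their Plk1 at 4.2, 27.6 and 26.6 CPM. For both genes the counting interval of shCtrl overlapped that of each hairpin. In no library did the counting interval of any of the 10 genes lie above that of the immune cells, which numbered 16 in shCtrl. The levels themselves lay on either side. In shCtrl Plk1 was at 8.58 CPM against 4.2 in the immune cells, and Aurka at 14.1 CPM against 16.8. These differences are not assigned to the spermatids, and the part of free RNA in them was not tested.

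**Figure D4:**
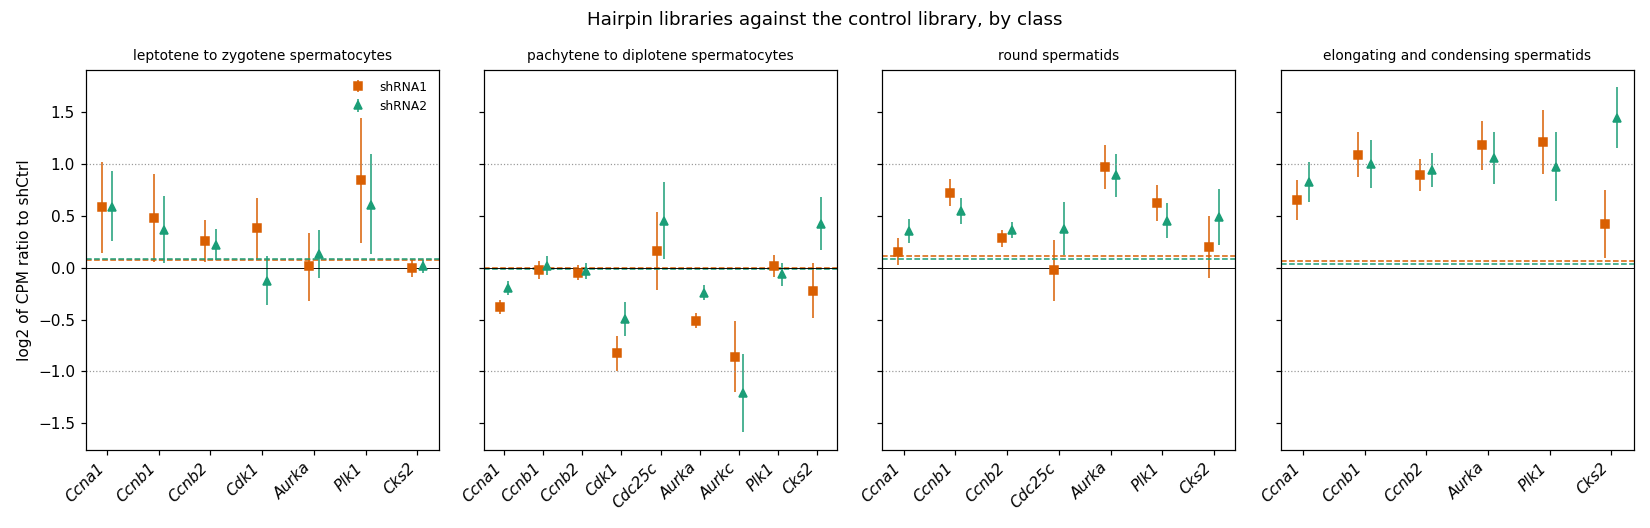
Log2 of the CPM ratio of each hairpin library to the control library for the genes compared in each class, without a pseudocount; bars are exact 95% counting intervals, dashed lines the medians over all compared genes and dotted lines 2-fold. In P/D cells Aurkc and Cdk1 lie below 0 with both hairpins while Ccnb1, Ccnb2 and Plk1 lie at 0, and in elongating spermatids all 6 genes lie above it.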

How the data were processed

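The values the authors deposited are on a natural log (ln) scale: each is a gene's share of its cell's UMIs, times 10000, plus 1, logged. Per the submitters' processing notes, Cell Ranger 1.3.1, mm10 and Seurat 2.0.0 were used; no source used here names the annotation, the counting strand or the cell filter. Whole UMIs were recovered from 100% of 20140203 non-zero values (within 0.01). The column names of the knockdown libraries were matched to the hairpins by their last digit alone.

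The 10 genes, the pathway and marker lists and the tests were chosen with earlier results of these data known. Cells were clustered with scanpy 1.11.5 (2000 variable genes, 30 components, Leiden resolution 0.8) after the 10 genes, the pathway list and Gm4665 had been left out, so p-values of other genes are not independent of the clusters. Clusters were named where at least 3 markers were raised 1.5-fold and the leading genes did not go against the name. A total of 6 cells with mesenchymal markers were set aside; a doublet caller marked 8, 7 and 2 cells, too few to count as having worked, so doublets are in effect not removed. UMIs were summed per class and library. Classes were compared by limma 3.58.1 on log2(CPM + 1), with library as a block, 8 residual degrees of freedom and Benjamini-Hochberg adjustment over the 8062 genes with a mean of at least 10 CPM and 30 UMIs; a call needs adjusted p under 0.05 and 2-fold. The 3 libraries differ in hairpin, so the error is that of 3 unlike libraries. The block follows the library each class was summed from. Hairpin libraries were compared without a test, for classes of at least 50 cells in each library. Intervals are exact and cover counting error only. Free RNA adds to every level, and counts of 3' tags do not scale with transcript length. The named genes were the 10 genes, the 3 highest and 3 lowest called pathway genes between pachytene/diplotene-like and spermatogonia-like cells, pathway genes 2-fold changed with both hairpins, fixed paralogs and the most alike gene of each. The fits were tested on simulated data.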

Additional observations from a re-analysis of the deposited data

How the results depend on the processing

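No direction of a called value reversed. Members called higher in leptotene/zygotene-like than in spermatogonia-like cells numbered 2, against 4 with TMM factors, 1 with clustering on all genes and at Leiden resolutions of 0.5 and 1.2, and 2 to 4 when each library was left out (4 without shRNA2). Leaving out each library gave 4 to 6 genes higher in pachytene/diplotene-like than in spermatogonia-like cells and 5 to 6 lower in round spermatid-like than in pachytene/diplotene-like cells. Members lower in elongating than in round spermatid-like cells numbered 5, against 2 with TMM and 1 with median-of-ratios factors. In round spermatid-like cells clustering on all genes gave 1 gene 2-fold higher with both hairpins in place of 0. The 1 gene in elongating spermatid-like cells became 0 with TMM or median-of-ratios factors, a pseudocount of 5 CPM, clustering on all genes or the control's cluster mix, and 2 without the filter on low values. Shares of co-detection after thinning were 5.08% (Ccna1 with Ccna2), 79.6% (Ccnb1 with Ccnb2) and 6.77% (Aurka with Aurkc, 15.8% before). Between pachytene/diplotene-like and spermatogonia-like cells TMM factors moved the median of all genes from 0.06 to 0.87 and the share of calls that were higher from 50.9% to 73.3%, and Cdk1 was then called higher. For elongating against round spermatid-like cells that share went from 8.91% to 50.3%, for round spermatid-like against pachytene/diplotene-like cells from 45.3% to 63.3%, for pachytene/diplotene-like against leptotene/zygotene-like cells from 42.3% to 60.1% and for leptotene/zygotene-like against spermatogonia-like cells from 55.1% to 80.8%. Without the library as a replicate block all counts of calls stayed the same, with 5 genes higher and 2 lower between pachytene/diplotene-like and spermatogonia-like cells. Keeping the 6 cells set aside, an alternative chosen after seeing the data, moved no count of calls past 1.5 times. Depth limits what can be said of Aurkc, Cdc25c and Ccna2, and the control library's 27 spermatogonia-like cells limit every comparison with that class.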
